A study of Homo sapiens and Mus musculus with 6 samples.

Results

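A total of 64490 contacts between a baited promoter fragment and an unbaited distal fragment were examined in GM12878. They came from the 92929 entries of the authors' list with read counts. They were chosen as pairs on 1 chromosome with midpoints under 1 Mb apart, whose other end carried no gene name in the list and was never listed as a bait. They made up 69.4% of all GM12878 calls and 70.8% of the 91120 calls within 1 Mb, and they joined 10878 baits to 39537 distinct fragments. GM12878 is an Epstein-Barr virus-transformed lymphoblastoid line of human B cell origin, labelled B-Lymphocyte by the submitters, and it was studied in 3 biological replicates without any perturbation. The authors merged the replicates before calling, so there was 1 set of calls and no spread between replicates could be given. Mouse J1 (129S4/SvJae) embryonic stem cells (mESCs), with 2 biological replicates, were used only for comparison. Because the assay measures contacts and not RNA, the labelled cell type could not be checked against expressed markers.

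In promoter Capture Hi-C (CHi-C), chromatin is cross-linked, cut with HindIII and ligated, and fragments that carry promoters are then enriched with RNA baits. Each read pair therefore joins a bait to another restriction fragment, the other end. Unbaited other ends include enhancers, which can lie far from the gene they act on, and binding sites of CTCF, a zinc-finger protein that together with cohesin anchors chromatin loops. Loop anchors bound by CTCF usually carry motifs that face each other, as loop extrusion by cohesin stops at a motif that points to the extruding complex. A contact by itself shows proximity and not regulation. Read counts given here are the authors' rounded means over replicates, weighted by sample size, and the CHiCAGO score is a transformed negative log of a p-value weighted by distance, with a value of at least 5 in the list.

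Fragments with a single copy of the 12-base core of the CTCF motif, searched on both strands, are shown first, because contacts and pairs that were not called differed in the orientation of this core. The following 60-base windows come from 8 of the 9 highest-scoring such fragments, are read along the motif in the hg19 reference, and show the core in capitals.
Contacted by SMU1, chr9:33225762-33225821, minus strand: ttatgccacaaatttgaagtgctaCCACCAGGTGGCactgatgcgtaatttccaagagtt
Contacted by RNU2-38P, chr1:145059125-145059184, minus strand: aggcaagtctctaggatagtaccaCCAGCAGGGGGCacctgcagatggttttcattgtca
Contacted by DLX3, chr17:47938626-47938685, plus strand: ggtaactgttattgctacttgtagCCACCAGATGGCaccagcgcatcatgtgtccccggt
Contacted by AMHR2, chr12:53746534-53746593, plus strand: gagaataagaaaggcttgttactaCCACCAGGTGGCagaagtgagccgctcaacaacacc
Contacted by NFAT5, chr16:69430084-69430143, plus strand: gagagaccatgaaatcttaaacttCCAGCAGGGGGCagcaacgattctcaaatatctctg
Contacted by CRTC2, chr1:153769846-153769905, plus strand: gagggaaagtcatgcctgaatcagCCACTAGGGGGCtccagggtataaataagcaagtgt
Contacted by TIPARP, chr3:156799659-156799718, minus strand: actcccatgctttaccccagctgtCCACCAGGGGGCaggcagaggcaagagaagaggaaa
Contacted by DST, chr6:56767831-56767890, plus strand: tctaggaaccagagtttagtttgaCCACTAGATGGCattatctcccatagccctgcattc
All 8 motifs pointed to the bait that contacted the fragment. The contacts spanned 48.7 kb (DST, dystonin) to 410.4 kb (TIPARP) and had scores of 27.5 to 39.3 on 24 to 63 reads. Of these fragments, 5 lay in a protein-coding gene body, 1 of them with an exon (of GATAD2B), and 3 lay outside such genes. Among the 100 highest-scoring fragments with a single core, 84 pointed to the bait, and among the highest 20 it was 18.

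Distal contacts were unevenly spread over promoters. The list names 16616 baited fragments, as a bait or as a named other end, and 10878 of them (65.5%) had at least 1 distal contact. The mean was 3.88 contacts per listed baited fragment (SD 6.95 over fragments) and the median was 1. A baited fragment is named only where at least 1 of its pairs was called, and the paper captured more baits than are named. Over all captured baits the mean and the share with a distal contact would be lower. Among baits with a distal contact the median was 3, and 3255 of them had exactly 1. At least 10 contacts were listed for 2004 baits, at least 20 for 685 (4.12%) and at least 50 for 37. The 1088 baits with most contacts, 10% of those with any, accounted for 41.9% of all distal contacts. In mESCs, 62525 contacts selected by the same rule gave a mean of 3.64 and a median of 1 over 17157 listed baited fragments. The mean number of contacts was not steadily related to the length of the baited fragment. The mean was 2.73 below 1 kb, 4.09 at 4 to 8 kb and 3.24 at 16 kb or more, while the median was 1 in every class. The share with at least 1 distal contact, however, fell at each step of length, from 80.3% below 1 kb to 61.2% at 16 kb or more. This share is over listed fragments only, and whether being listed depends on length was not tested.

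**Figure D1:**
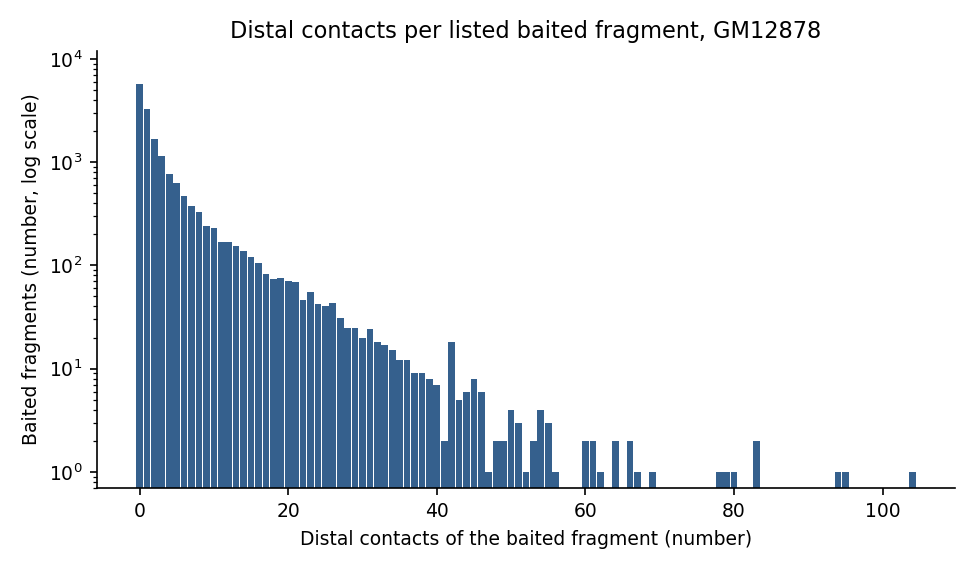
Number of listed baited fragments (log scale) by their number of distal contacts in GM12878. Most of the 16616 fragments had few contacts, and the tail ended at 104 contacts for DUSP5.

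The promoter of DUSP5, which encodes a nuclear phosphatase that inactivates ERK, had the most distal contacts, 104. Its bait lay at chr10:112255134-112262944 (hg19). Of these contacts, 68 lay upstream and 36 downstream, reaching 590.1 kb and 460.2 kb from the bait. They rested on 8 to 64 reads with a median of 21.5, and 51 had a score of at least 10. The highest score of all distal contacts, 55.5 on 64 reads, was that of the DUSP5 bait with a fragment 141 kb upstream (chr10:112115824-112121155), which overlapped no protein-coding gene and had no CTCF core. The adjacent fragment at 145 kb had the second highest score, 46.9 on 54 reads. Many of the contacts lay side by side. With each run of adjacent fragments counted once, DUSP5 fell from 104 contacts to 44, below RAPGEF2 with 49 and the HIST1H2AH bait with 46, and level with the baits of DST and ADAMTSL4.

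The next baits in the order were SGK223 with 95 contacts, RAPGEF2 with 94, and WHSC1L1 and AGPAT5 with 83 each. RAPGEF2 encodes a guanine nucleotide exchange factor for Rap GTPases, WHSC1L1 a histone methyltransferase and AGPAT5 an acyltransferase of phospholipid synthesis. Fragments of DST and BEND6 (80 contacts), AC021188.4 (79), HIST1H2AH and HIST1H2BK (78), AC104134.2 (69) and ADAMTSL4 with several other genes (67) completed the 10 baits with most contacts. These baits had similar numbers but different layouts. For RAPGEF2, 68 contacts lay upstream and 26 downstream with a median distance of 141 kb, and 25 of the 94 fell in the RAPGEF2 gene itself. For the histone gene bait at chr6:27113447-27115524 the median distance was 658 kb, and 76 of its 78 contacts lay past at least 1 other baited fragment. For DST, a gene of cytoskeletal linker proteins, 45 of 80 contacts fell within the bait genes.

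Distal contacts had a median distance of 171 kb between midpoints, with quartiles at 81.9 and 292 kb. Only 7.59% were under 20 kb and 6.28% were over 500 kb. The median number of reads fell with distance, from 48 under 20 kb to 17 at 100 to 200 kb and 9 over 500 kb, while the median score stayed between 6.09 and 6.61. A contact over 500 kb away was thus listed on fewer reads than one close by. Contacts whose other end was itself baited had a similar median distance, 169 kb, but a higher median score of 7.22 against 6.42. A score of at least 10 was reached by 24.2% of them (Wilson 95% interval 23.7 to 24.7%) and by 12.4% (12.2 to 12.7%) of the distal contacts. The list used here held 92929 entries and the authors' browser list 88667 pairs, with the same 64490 distal contacts in each. A pair of baited fragments can be entered from either end, and such repeats were not removed. The baited values therefore describe list entries and are not strictly comparable with the distal values. In mESCs the median distance of distal contacts was shorter, 126 kb, and 15.0% were under 20 kb. These intervals cover counting error only, and neighbouring calls are not independent.

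Among baits with at least 10 contacts, the longest median distances belonged to HS3ST1 (839.9 kb, 16 contacts), which encodes a heparan sulfate sulfotransferase, NKX6-1 (819 kb, 11 contacts), a homeobox gene, COL23A1 (815 kb, 10 contacts), a collagen gene, and the non-coding AC009227.2 (808 kb, 10 contacts) and RP11-349J5.2 (779 kb, 13 contacts). All 16 contacts of HS3ST1 lay downstream, and the strongest was 876 kb away with a score of 21.7 on 21 reads. The contacts of COL23A1 were split, with 6 upstream and 4 downstream. Reads were few at this range, with medians of 9 to 12.5 per bait.

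At the other end of the range were the contacts with most reads. The HIST1H2AH bait and a fragment 4.82 kb away shared 247 reads with a score of 17.5. MALAT1, a nuclear long non-coding RNA gene, followed with 200 reads at 2.14 kb, then KCTD19 and LRRC36 with 197 at 2.88 kb, SNORD12 with 184 at 2.85 kb and ANKLE2 with 182 at 9.92 kb. All 5 contacts were under 10 kb, and their scores of 12.4 to 20.7 were far below the 55.5 of DUSP5.

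Upstream and downstream contacts were about equally frequent over all promoters, but single promoters were often one-sided. Direction could be given for 45652 contacts of 7324 baits whose protein-coding starts lie on 1 strand, and 49.5% (49.0 to 49.9%) were upstream. The share was 47.9% (46.2 to 49.6%) under 20 kb and 50.9% (49.1 to 52.8%) over 500 kb. Median distances were alike, 171 kb upstream and 167 kb downstream. Of the 2004 baits with at least 10 contacts, 494 (24.7%, 22.8 to 26.6%) had all of them on one side, and 57.6% had at least 80% on one side.

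The baits with most contacts on a single side were C3orf52, with all 61 downstream, and TSPAN1, PIEZO2 and NUDT4, with 42 each, followed by SRP14, a signal recognition particle gene, with 40. The contacts of TSPAN1 (a tetraspanin gene), NUDT4 and SRP14 were all upstream, whereas those of C3orf52 and PIEZO2 were all downstream. PIEZO2, which encodes a mechanically gated ion channel, contacted mainly its own gene, as 40 of its 42 fragments lay in the gene body. By contrast, none of the 42 contacts of NUDT4 lay in its own gene and all 42 passed another baited fragment. One-sidedness therefore went with quite different positions relative to the gene.

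Contacts often came in runs of adjacent restriction fragments. A run was 2 or more neighbouring fragments contacted by the same bait, and 25964 contacts (40.3%, 39.9 to 40.6%) lay in 9689 runs, which were found at 4072 baits. Of the unbaited neighbours of a contacted fragment, 28.0% were contacted by the same bait too, compared with 1.198% of all pairs of these baits with an unbaited fragment within 1 Mb. Many of those pairs are far apart, and the rate over pairs was 3.31% at 100 to 200 kb and at most 5.30%, in the class under 20 kb. Baits with many contacts also weigh more in the 28.0% than in the rates over pairs, and their part in the difference was not tested. The calling model does not link neighbouring fragments, but neighbours lie at nearly the same distance from the bait and share local chromatin. Contacts in longer runs had higher scores, with a median of 6.06 for single fragments, 6.79 for pairs, 8.69 in runs of 5 to 9 and 10.5 in the 57 runs of 10 or more.

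The longest run, of 28 fragments over 101 kb, belonged to DUSP5 and began 66.3 kb from the bait. Its fragments had 12 to 64 reads with a median of 28. FAM53B followed with 18 fragments over 114 kb, the widest run by length, and the bait shared by PIH1D1 and SLC17A7 with 16 over 108 kb. CCND2, which encodes cyclin D2, had a run of 15 fragments over 75.4 kb, 102 kb upstream of its promoter, with 13 to 34 reads per fragment. All 27 contacts of CCND2 were upstream, and none passed another baited fragment. SLC16A11, PIGV and CABLES1 each had a run of 14 fragments. The run of PIGV reached a score of 34.9 and that of SLC16A11 reached 23.8.

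Genes that act in B cells were then examined, as lists of genes named on the baits. Over all 22002 gene names on listed baited fragments, 66.3% had at least 1 distal contact and 4.74% had at least 20, with a median of 1 and a mean of 4.33 contacted fragments per gene. These names include non-coding genes and pseudogenes, whereas the lists hold protein-coding genes, so the sets are unlike. Genes of the NF-kB pathway, which carries signals from the B cell receptor and CD40 and is activated by Epstein-Barr virus LMP1, had a median of 14, with 14 of 15 listed genes contacting at least 1 fragment. The median was 8 for 11 lymphocyte migration genes, 6 for 11 germinal centre and plasma cell genes, 4.5 for 12 MHC class II genes, 3 for 15 B cell receptor and coreceptor genes and 2 for 20 B cell transcription factors. Among lists of other kinds it was 7 for 10 housekeeping genes, 2 for 9 muscle markers, 1 for T cell, myeloid and neuronal markers, and 0 for hepatocyte and erythroid markers. At least 1 fragment was also contacted by 14 of 15 B cell receptor and coreceptor genes and by 7 of 8 neuronal markers. In the remaining lists this share ran from 28.6 to 81.8%. By the mean, the NF-kB list (15.9) was closer to housekeeping genes (14.2). The lists overlapped widely, since each held at least 1 gene with no contact. They describe the genes chosen, and no test was made of them. Genes such as CD40, PIK3CD, VAV1, S1PR1, CCL3 and CCL4 were not named on a listed baited fragment and were not counted.

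**Figure D2:**
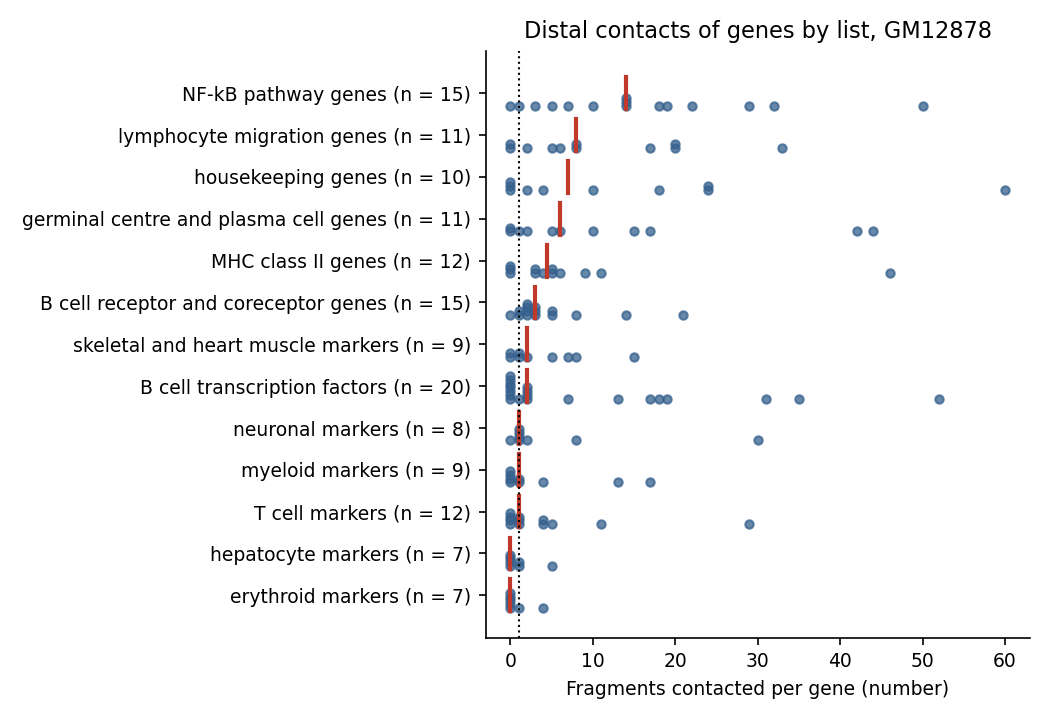
Distal fragments contacted per gene (x axis, number) for the 13 gene lists, with each point a listed gene, the red bar the median of the list and the dotted line the median of 1 over all 22002 gene names. The NF-kB genes had the highest median, 14, and erythroid and hepatocyte markers the lowest, 0. The 22002 names include non-coding genes, which the lists do not hold.

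Among the transcription factors, ETS1 had the most contacts, 52, of which 46 lay downstream and 6 upstream. ETS1 encodes a factor needed for normal lymphocyte development. Its reads ran from 11 to 62 with a median of 17, and its highest score, 20.7 on 30 reads, was at 285 kb (chr11:128167853-128171584). Runs of 6 adjacent fragments lay 269 to 281 kb and 294 to 307 kb from its bait. They had no more than 25 reads per fragment. The contacts of ETS1 were thus mostly downstream.

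POU2F2, which encodes the octamer factor Oct-2, contacted 35 fragments from 2 baits, at chr19:42628923-42637124 and chr19:42693183-42701975. ID3, an inhibitor of E proteins, contacted 31 fragments. For ID3 a run of 12 fragments covered 65.8 kb at 36.01 to 92.7 kb upstream, on 25 to 58 reads each. Its highest-scoring contact, 21.4 on 52 reads, held 1 CTCF core. PAX5, which maintains B cell identity, contacted 19 fragments from 2 baits. All of the 24 pairs of these baits and fragments lay upstream, past other baited fragments, and the strongest was 400.0 kb away (chr9:37403399-37405289, score 18.1 on 22 reads). The second bait of PAX5 had its highest score, 11.6 on 18 reads, with a fragment at 266 kb in ZCCHC7. No distal contact was listed for TCF4, IKZF3, SPI1, SPIB, POU2F1, RUNX1 or LEF1, and EBF1, an early B cell factor, had 2. The same list thus held both some of the richest promoters and promoters with none. Having no distal contact means that no pair with an unbaited fragment within 1 Mb reached a score of 5, and not that there was no contact.

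IRF4 and PRDM1, which encode transcription factors of plasma cell differentiation, had 44 and 42 distal contacts. For IRF4, 35 lay upstream and 9 downstream, on 15 to 76 reads, and 21 had a score of at least 10. The highest score was 35.7 on 54 reads at 162 kb (chr6:230419-232603), and a run of 9 fragments covered 36.3 kb around it. Another run of 7 fragments lay 61.3 to 79.9 kb upstream. Further upstream contacts lay between these runs, and the second highest score, 30.2 on 76 reads, was at 57.4 kb in DUSP22. For PRDM1 the median distance was 354 kb and the highest score was 17.2 on 20 reads, at 656 kb in the gene body of PREP, within a run of 5 adjacent fragments. Only 1 of its 42 contacts passed another listed baited fragment. SDC1, which encodes the plasma cell surface protein syndecan-1, had 17, and IRF8, a factor of B cell and myeloid development, had 15, of which 14 were downstream. S1PR2, a receptor that confines germinal centre B cells, and CD83 had none.

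**Figure D3:**
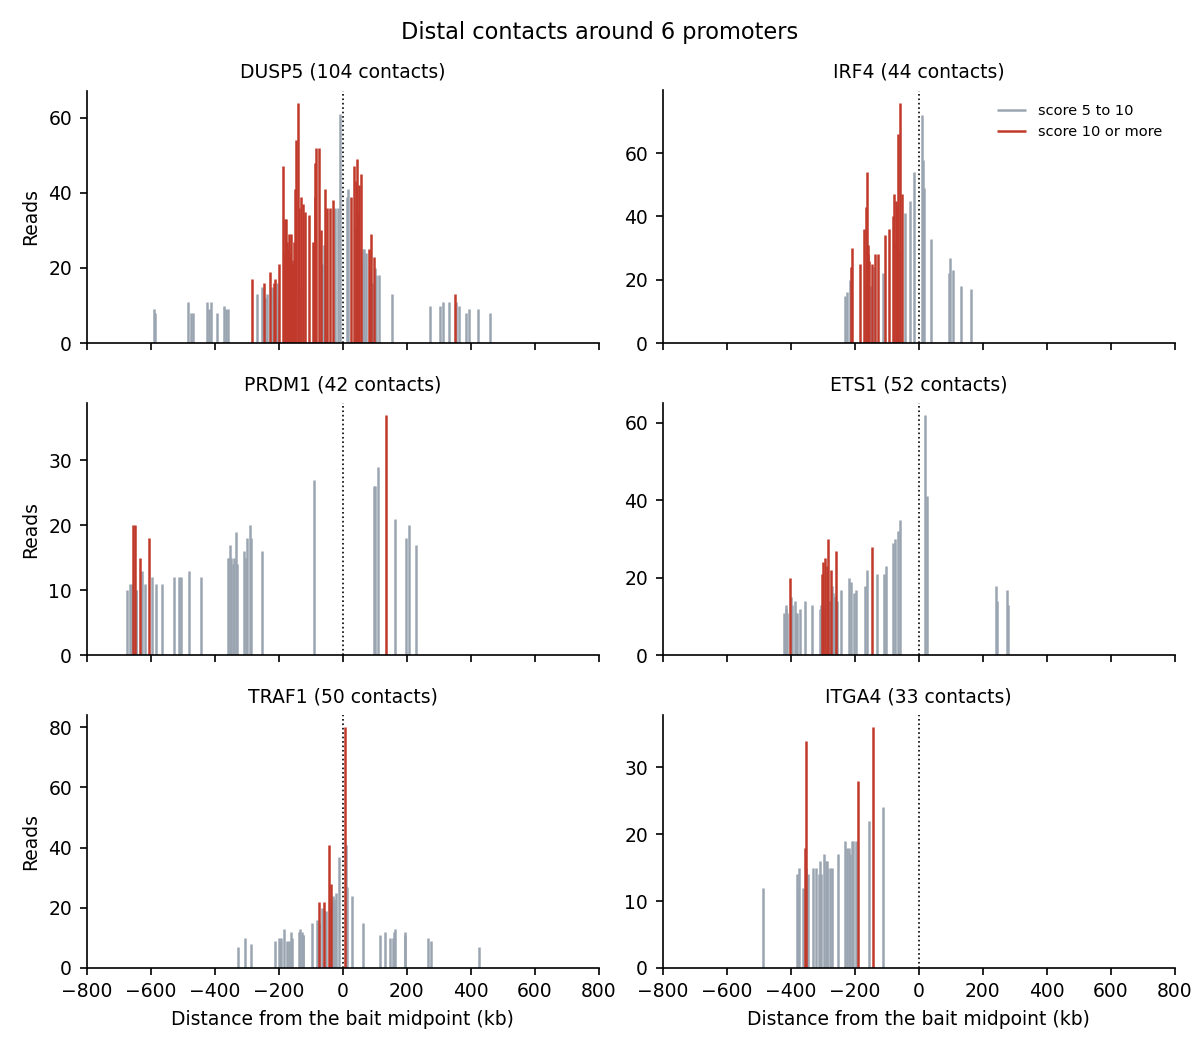
Reads of each distal contact (y axis) against its distance from the bait midpoint (x axis, kb, toward higher chromosome positions on the right) for 6 promoters, with contacts of score 10 or more in red and others in grey. Contacts of ITGA4 lie on 1 side only, those of PRDM1 reach 674 kb, and those of DUSP5 and IRF4 include the highest scores.

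In the NF-kB list, 4 genes had at least 20 distal contacts. TRAF1, an adaptor of TNF receptors, had 50, on 7 to 80 reads, with 34 downstream and 16 upstream. Its highest score, 22.4 on 41 reads, was 42.6 kb away in PHF19. TNFAIP3, which encodes the inhibitor A20, had 32, of which 21 were upstream, and its highest score was 15.2 on 37 reads at 159 kb. Of the subunit genes, REL had 29, NFKB2 22, NFKB1 14 and RELB 7, while RELA had none. A run of 9 fragments for NFKB2 lay 214 to 236 kb upstream, and its highest-scoring contact (16.9 on 22 reads) held 1 CTCF core. The inhibitor genes NFKBIE (14), NFKBIA (10) and NFKBIB (3) had fewer contacts than TNFAIP3.

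Of the B cell receptor and coreceptor genes, LYN, a Src family kinase, had 21 contacts and the adaptor gene BLNK had 8. The receptor chains CD79A and CD79B had 3 and 5, and CD72 had none. Among migration genes, ITGA4, the integrin alpha 4 chain, had 33 contacts, all upstream and 111 to 485 kb away, with a highest score of 26.1 on 34 reads at 353 kb. ITGB7, its beta partner, and the chemokine receptor gene CXCR5 had 20 each, and S1PR2 had none. Of the MHC class II genes, HLA-DOB, a chain of a peptide-loading modulator, had 46 contacts, 38 of them downstream with 9 adjacent fragments at 380.0 to 403 kb. HLA-DRA had 11 and HLA-DQB1 had 9 fragments, and HLA-DQA1, HLA-DOA and CD74, the invariant chain gene, had none.

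Large numbers were also found outside B cell genes. GAPDH, a glycolytic enzyme gene, had 60 contacts, more than any B cell gene on the lists, and ACTB and EEF1A1 contacted 24 fragments each. Among markers of other cell types, CD4 contacted 29 fragments from 2 baits, 1 of which also carried GPR162 and LEPREL2. SLC17A7, a neuronal glutamate transporter gene, had the 30 contacts of the bait it shared with PIH1D1. Of the myeloid markers LYZ had 17, CEBPB 13 and S100A9 4, and of the muscle markers DES had 15, MYOD1 8 and ACTA1 7. The T cell marker CD3E had 5 and the neuronal markers GAD1 and NEUROD2 had 8 and 2. In the lists with a median of 0, the highest numbers were 5 for APOA1 and 4 for TAL1, with 1 each for TTR, TAT and SLC4A1. A bait with several genes gave all of its contacts to each name, so the contacts of a marker may belong to its neighbour.

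Another listed baited fragment lay between the ends of 74.5% of contacts (74.1 to 74.8%), compared with 84.8% of all pairs of these baits with an unbaited fragment within 1 Mb, and the contacting bait was the nearest listed baited fragment for only 12.5% (12.2 to 12.7%). The share past another bait rose from 9.14% under 20 kb to 82.7% at 100 to 200 kb, where 72.0% of all pairs passed one. Because all pairs lie farther apart than contacts do, rates of contact were compared within classes of distance. At 100 to 200 kb, 3.802% (3.74 to 3.86%) of pairs with a baited fragment between them were listed as contacts and 2.03% (1.96 to 2.11%) of pairs without. At 500 to 1000 kb the order was the other way, with 0.140% (0.135 to 0.144%) and 0.280% (0.254 to 0.308%). The number of listed baited fragments within reach of the bait also moved with contacts, as baits with at least 60 such neighbours had a mean of 6.57 contacts and those with under 10 had 3.21. Its part in the difference was not tested.

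**Figure D4:**
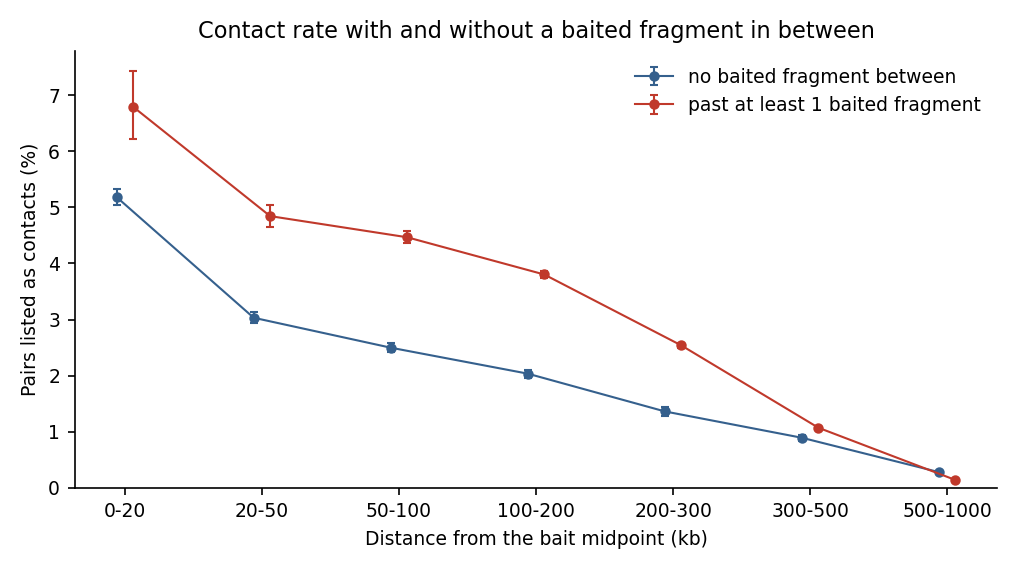
Share of pairs of a bait and an unbaited fragment listed as contacts (y axis, %) by distance class (x axis, kb), for pairs with and without another listed baited fragment between them, with Wilson 95% intervals. Pairs past a baited fragment had the higher rate in every class up to 500 kb and the lower rate beyond.

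Contacted fragments lay more often in genes than other fragments did. A protein-coding gene body was overlapped by 65.0% (64.6 to 65.5%) of contacted fragments and by 48.1% (48.0 to 48.2%) of unbaited fragments within 1 Mb of a listed bait that were never contacted. Of 53257 contacts from baits with a protein-coding gene, 12.1% fell in the body of a bait gene alone, 1.23% in both a bait gene and another, 54.0% in another gene alone and 32.7% in no protein-coding gene. The median distance was 53.7 kb for contacts in a bait gene alone, 36.1 kb for those in both a bait gene and another, and 183 kb for those in another gene alone. Contacted fragments were longer than these uncontacted fragments (median 4276 against 2129 bp) and richer in GC (42.9 against 39.2%). An exon was present in 37.9% (37.4 to 38.3%) of them, compared with 14.5% (14.4 to 14.5%). A protein-coding transcription start was annotated in 14.7% of the contacted fragments and in 4.24% of the uncontacted ones, so that unbaited did not mean free of promoters. The exon shares were not compared by length. For a start of any gene type, the shares were 21.7% and 8.10% over all lengths, and 23.9% and 13.7% at 4 to 8 kb.

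The core of the CTCF motif was more frequent in contacted fragments. It was present in 4.31% (4.11 to 4.51%) of 39537 contacted and 1.06% (1.04 to 1.09%) of 678458 other unbaited fragments. Because long fragments hold more motifs, fragments were compared by length. At 2 to 4 kb the shares were 2.74% (2.46 to 3.06%) and 0.885% (0.841 to 0.932%), and at 8 to 16 kb they were 8.44% (7.79 to 9.14%) and 3.74% (3.59 to 3.91%). The share was higher for contacted fragments in all 6 length classes and in all 6 GC classes. It rose with the score, from 4.54% of contacts at a score of 5 to 6 to 8.79% at 15 or more. The farthest contact on a side with at least 5 held a core in 6.99% of cases (6.25 to 7.80%) and the other contacts in 4.19% (4.00 to 4.38%), with mean fragment lengths of 5.76 and 5.21 kb. Single cores pointed to the bait about equally often, in 68.75% (63.0 to 74.0%) of the farthest and 67.8% (65.5 to 70.0%) of the others.

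The orientation of the core differed clearly between contacts and other pairs. Of 3133 contacts whose fragment held a single core, 71.3% (69.7 to 72.9%) had it pointing to the bait, as in the windows shown above for SMU1 and NFAT5. Of 84662 uncalled pairs with such fragments, 49.2% (48.8 to 49.5%) did. The uncalled pairs came from 10832 baits and the contacts from 2477. Among contacts the share was 51.8% (42.6 to 60.9%) under 20 kb, 72.0% (69.1 to 74.8%) at 100 to 200 kb and 78.9% (72.6 to 84.0%) over 500 kb. It was 66.4% (63.5 to 69.1%) at a score of 5 to 6 and 81.7% (78.2 to 84.7%) at a score of at least 10. With each fragment counted once, by its highest-scoring contact, it was 73.1% (70.9 to 75.2%), a choice that favours high scores. Among list entries whose other end was baited, where a pair can be entered from either end, 61.8% (59.7 to 63.9%) had the core pointing to the bait.

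Orientation also set apart the rate at which pairs were called. At 100 to 200 kb, 15.4% (14.4 to 16.5%) of fragments with a core pointing to the bait were contacted, 5.99% (5.33 to 6.72%) of those with a core pointing away, and 3.31% of all unbaited fragments. Under 20 kb the values were 7.09% (5.51 to 9.08%) and 6.61% (5.09 to 8.54%), whose intervals overlap. The baits themselves mostly had no core, and 2868 of the 3133 contacts came from such baits, with 71.5% of motifs pointing to the bait. Where the bait held 1 core that pointed to the fragment, 73.8% (66.7 to 79.9%) of 168 contacts had the facing orientation. Where the bait core pointed away, 64.0% (52.7 to 73.9%) of 75 contacts had the fragment core pointing to the bait, and these intervals overlap. For baits with several cores it was 45.5% (26.9 to 65.3%) of 22 contacts. A match of the core is not a measured CTCF binding site.

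**Figure D5:**
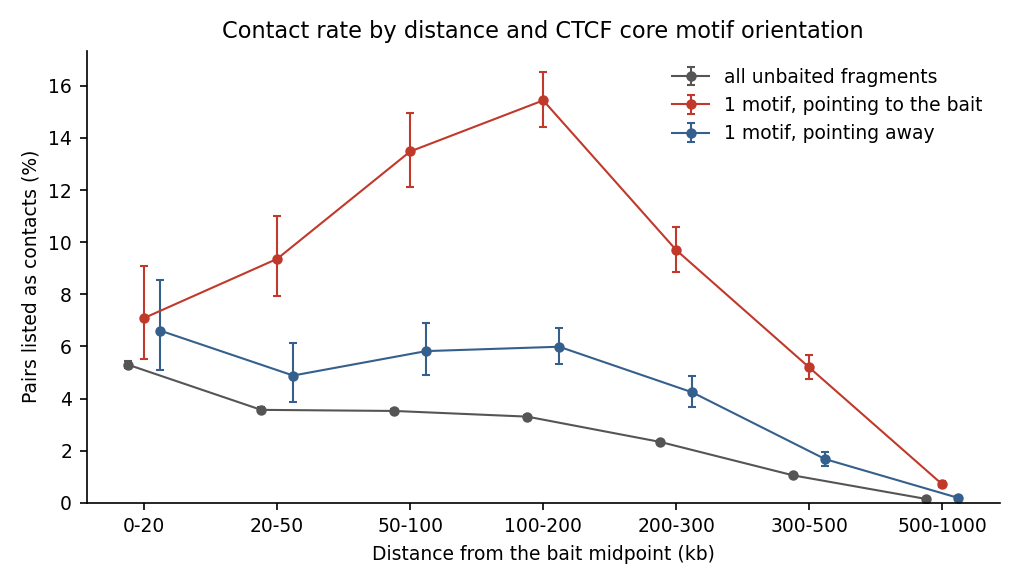
Share of pairs of a bait and an unbaited fragment listed as contacts (y axis, %) by distance class (x axis, kb), for all unbaited fragments and for those with a single CTCF core pointing to or away from the bait, with Wilson 95% intervals. From 20 kb on, fragments with a core pointing to the bait had the highest rate, with 15.4% at 100 to 200 kb.

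Most contacted fragments, 27022 of 39537 (68.3%), were contacted by a single bait, 175 by at least 10 and the most shared one by 23. That fragment (chr6:27107453-27111875) overlapped the histone gene H4C9, and most of its 23 baits carried histone genes. Of the 5 most shared, 3 lay on chromosome 12 within 200 kb of each other, in LAG3 (20 baits), LPAR5 (19) and CHD4 (18), where the baits included those of GAPDH and CD4. The remaining one was in POLR2A on chromosome 17, with 18 baits. Over chromosomes, the mean number of contacts per listed baited fragment ran from 1.32 on the X chromosome to 5.22 on chromosome 12, and 46.2% of X-linked baited fragments had any distal contact.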

How the data were processed

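Per the labels, 3 biological replicates of GM12878 promoter CHi-C were mapped to hg19 with Bowtie 1.1.0 within HiCUP, which also removed artefacts and duplicates. The authors merged the replicates and called interactions with CHiCAGO. The deposited list gives for each call a score and a read count; the read count is a rounded weighted mean over replicates and is not a raw count, and the score is at least 5. The depth of single replicates was not used here, and the precision of each share follows from the number of calls.

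The hg19 reference was cut at HindIII sites, and 100% of the listed fragments matched this digest. Genes were named as in the list, and gene bodies and starts came from GENCODE for GRCh37. Distances are between midpoints. Shares carry Wilson 95% intervals (scipy 1.17.1), and no test was run because there was 1 set of calls. Functions were tested on simulated data.

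The contacts and gene lists were chosen with earlier results of these data known. Named genes are the 10 baits with most contacts, the 5 contacts with highest score and the 5 with most reads, the 5 longest runs, the 5 longest median distances at 10 contacts or more, the 5 baits with most contacts on 1 side, and in each list the 3 genes with most contacts, with the B cell genes that had none. PIGV and CABLES1, tied for the fifth longest run, and some further list members, the most shared fragments and the CTCF windows were added after their values were seen. Some genes that this rule selects are not reported here. Alternatives were a score of at least 10, at least 10 reads, the browser list, a window of 500 kb, runs counted once, and chromosome 6 from 25 to 34 Mb left out. A run counted once was represented by its highest-scoring contact.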

Additional observations from a re-analysis of the deposited data

How the results depend on the processing

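At a CHiCAGO score of at least 10, the contacts numbered 8008, or 0.482 per listed baited fragment, their median distance was 145 kb, 51.9% were upstream, 35.4% lay in runs, 73.2% passed another baited fragment, 52.5% fell in other genes, 6.66% of contacted fragments held a CTCF core, 81.7% of single cores pointed to the bait, and the NF-kB list had a median of 1, level with the germinal centre list, beside 0 over all genes. With at least 10 reads, the median distance was 149 kb, 42.3% lay in runs and 72.0% passed another baited fragment. Within 500 kb these values were 159 kb, 41.3% and 73.4%. With each run counted once, the median distance was 178 kb, 75.03% passed another baited fragment, 56.1% fell in other genes and 4.55% of fragments held a core. If runs could bridge 1 fragment that was not contacted, 54.8% of contacts lay in runs. Other shares stayed within their intervals, and counts within 1.5 times. The browser list changed no value. Of 23 values for single genes and the other lists, 21 moved by over 1.5 times at a score of at least 10, 11 with runs counted once (IRF4 from 44 to 21, ETS1 from 52 to 28, TRAF1 from 50 to 31), and no more than 2 under any other alternative. Leaving out a replicate was not possible, since the calls were made on merged replicates. No paired analysis was possible because the result comes from no test. The causes of these shifts were not tested. Contacts over 500 kb rest on few reads, a pair that is not listed may still be in contact, and all intervals cover counting error only.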
